A study of Mus musculus with 10 samples.

Results

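The transcripts of 9 mouse genes that build caveolae or the diaphragms of endothelial openings were followed through 3 populations of freshly sorted endothelial cells. They were the caveolins Cav1 and Cav2, the cavins Ptrf (Cavin1), Sdpr (Cavin2) and Prkcdbp (Cavin3), the neck and curvature proteins Ehd2, Ehd4 and Pacsin2, and the diaphragm protein gene Plvap. The genes were taken by their listed symbols. All 9 were found among the 23284 gene symbols of the count table, and all 9 passed the filter on low counts, which left 15320 genes in the tests.

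RNA-Seq libraries were made from lymph node lymphatic endothelial cells (LN-LEC, 4 libraries), lymph node blood endothelial cells (LN-BEC, 3 libraries) and diaphragm lymphatic endothelial cells (D-LEC, 3 libraries). The animals were wild-type C57BL/6 mice 6 to 8 weeks old, and the sample labels name no treatment. LN-LEC and LN-BEC came from a mix of nodes from 5 sites (mesenteric, cervical, brachial, axillary and inguinal) and D-LEC from the diaphragm. Cells without CD45 and with CD31 were sorted as LEC when they carried PDPN and as BEC when they did not, and each library was a pool of several mice. The tissue and its separate preparation cannot be told apart in the comparisons with D-LEC. In bulk libraries such as these, fewer cells of a type and less RNA per cell cannot be told apart either. The paper reports that average purity after sorting was highest for LN-LEC, lower for LN-BEC and lowest for D-LEC.

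Caveolae are flask-shaped pits of the plasma membrane that are abundant in many vascular endothelia, where they buffer membrane tension, organize signalling and take part in transport across the cell. Caveolin-1 forms oligomers that insert into the inner leaflet of the membrane, caveolin-2 joins it in hetero-oligomers, and the cavins coat the bulb from the cytoplasm. EHD ATPases sit at the neck and hold caveolae at the surface, PACSIN2 bends membrane through its F-BAR domain, and PLVAP forms the thin diaphragms that span caveolae, transendothelial channels and fenestrae.

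Library totals ran from 22429940 to 48906070 counted fragments. Levels are given as counts divided by DESeq2 size factors (normalized counts), which compare a gene between libraries, and as fragments per kilobase of exon and per TMM-scaled library size (FPKM) where genes are compared with one another. The summed LEC markers (Prox1, Lyve1, Pdpn, Flt4, Reln) lay at 94668 to 119450 normalized counts in LN-LEC, 2891 to 7955 in LN-BEC and 387240 to 415550 in D-LEC, and the summed BEC markers (Nrp1, Flt1, Vwf, Notch4, Cd34) at 1451 to 2569, 124740 to 128880 and 2569 to 3073. LN-BEC replicate 3 and LN-LEC replicate 4 stood apart from the other libraries of their populations. The chi-square per gene of their pairs was 326 and 406 for the first, against 27.7 for the other LN-BEC pair, and 124 to 162 for the second, against 10.8 to 19.5 for the other LN-LEC pairs. LN-BEC replicate 3 held more Lyve1 than the other LN-BEC libraries, with 3579.5 normalized counts against 883 and 643. In the order of deposit, LN-BEC replicate 3 and LN-LEC replicate 4 came last, after all D-LEC libraries, and the labels name no batch.

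In the comparison of LN-LEC with LN-BEC, LN-BEC had the higher level for 7 of the 9 genes, LN-LEC for 0, and 2 (Sdpr and Pacsin2) did not pass the test, which was edgeR's quasi-likelihood test with Benjamini-Hochberg adjustment at 0.05. Both of these had an unadjusted p under 0.05 with LN-LEC the higher, and DESeq2's Wald test likewise called neither. The background was 38.2% of all tested genes called in either direction, 18.4% with the higher level in LN-BEC and 19.8% with the higher level in LN-LEC. Libraries of these populations did not overlap for 7 of the 9 genes, against 44.9% of all genes. Log2 changes are given as LN-LEC minus LN-BEC, LN-LEC minus D-LEC and D-LEC minus LN-BEC, and their median here was -1.18 over the 9 genes and -0.01 over all tested genes. With library totals as the only scaling, the median of all genes moved by 0.20 to 0.19 in this comparison, the share of calls with LN-LEC the higher moved from 51.8% to 69.0%, and the 9 genes split into 2 with LN-LEC the higher and 7 with LN-BEC the higher. In the comparison of LN-LEC with D-LEC all 9 passed. D-LEC had the higher level for 7 of them and LN-LEC for 2 (Plvap and Ehd4), against backgrounds of 45.8% in either direction, 21.7% with D-LEC the higher and 24.1% with LN-LEC the higher. Libraries did not overlap for 9 of the 9, against 50% of all genes. The median was -1.47 for the 9 genes and 0.03 for all genes. For D-LEC against LN-BEC, D-LEC was the higher for 4 genes (Cav2, Sdpr, Ehd2 and Pacsin2), LN-BEC for 2 (Plvap and Ehd4), and 3 did not pass (Cav1, Ptrf and Prkcdbp). The background was 48.1% of all genes in either direction, 22.5% with D-LEC the higher and 25.6% with LN-BEC the higher, and 7 of the 9 did not overlap, against 56.1% of all genes. The median was 0.25 over the 9 genes and -0.05 over all genes. Library totals moved the median of all genes by 0.18 here, and the share of calls with D-LEC the higher from 46.7% to 60.5%. The comparisons share libraries, so their counts are not independent of one another. The backgrounds were not matched for level. They include genes down to a mean of 1 normalized count, whereas the lowest population mean of the 9 genes was 587 (Ehd2 in LN-LEC). The 9 genes were also chosen with earlier results of these data known. Cav1, Cav2, Ptrf, Prkcdbp and Ehd2 were the 5 genes called lower in LN-LEC than in each of the other populations, a pattern that 6.8% of all tested genes showed. Without LN-BEC replicate 3 and LN-LEC replicate 4, 8, 9 and 8 of the 9 genes were called in the 3 comparisons.

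**Figure D1:**
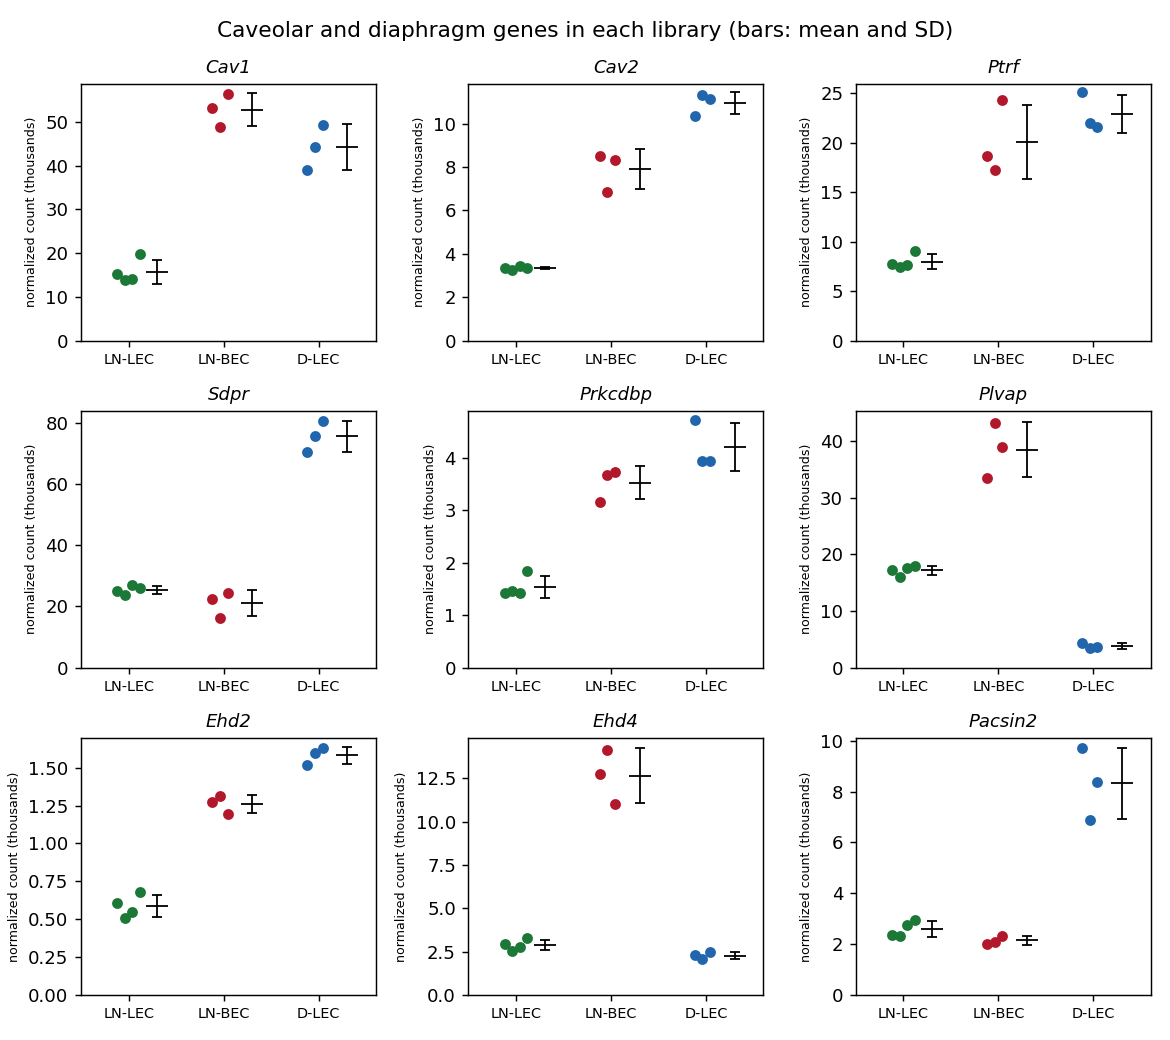
Normalized counts (linear axes from 0, scaled as labelled) of the 9 genes in every library, with 1 panel per gene. Each point is a library, and the bars beside the points give the mean and SD of its population. Cav1 lay between 13764 and 19723 in LN-LEC and between 48867 and 56387 in LN-BEC, whereas Plvap lay between 3401 and 4377 in D-LEC.

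Caveolin-1, the structural protein without which endothelial caveolae do not form, was encoded by abundant transcripts in each population. Cav1 (mm9 chr6:17256335-17291328, plus strand) stood at 15097, 13764, 14165 and 19723 normalized counts in LN-LEC, at 53058, 48867 and 56387 in LN-BEC, and at 38864, 44336 and 49345 in D-LEC. All LN-LEC libraries lay below all libraries of the other populations, and the ranges of LN-BEC and D-LEC overlapped. LN-BEC exceeded LN-LEC 3.33-fold (log2 change -1.73, SE 0.13, edgeR adjusted p = 1.4e-07), and D-LEC exceeded LN-LEC 2.78-fold (-1.47, SE 0.13, edgeR adjusted p = 6.1e-07). D-LEC and LN-BEC did not differ past the threshold (-0.26, 95% interval -0.56 to 0.04, edgeR adjusted p = 0.144). On the per-length scale Cav1 held rank 73 of the 15320 tested genes in LN-BEC, rank 80 in D-LEC and rank 280 in LN-LEC.

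Cav2 (chr6:17231341-17239011, plus strand), whose product joins caveolin-1 in the caveolar coat, was also lowest in LN-LEC, with D-LEC highest. Its normalized counts were 3351, 3263, 3420.5 and 3353 in LN-LEC, 8524, 6832 and 8332 in LN-BEC, and 10372, 11323 and 11120 in D-LEC. The 3 populations did not overlap. LN-BEC exceeded LN-LEC 2.33-fold (log2 change -1.22, SE 0.09, edgeR adjusted p = 7.9e-08), and D-LEC exceeded LN-LEC 3.22-fold (-1.69, SE 0.09, edgeR adjusted p = 2.7e-09). D-LEC exceeded LN-BEC 1.38-fold (0.47, SE 0.09, edgeR adjusted p = 9.9e-04).

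Cav2 and Cav1 lie side by side on chromosome 6, with the start of Cav2 25.0 kb before that of Cav1 on the same strand. Of the other genes within 500 kb, Tfec had at most 4 counts in any library, and its level is not read further. Tes, Met, Capza2 and St7 had smaller differences than Cav1 and Cav2 in the comparisons that involve LN-LEC. Tes, which encodes a focal adhesion protein, had means of 1668, 1174 and 2022 normalized counts in the order LN-LEC, LN-BEC, then D-LEC, and LN-LEC exceeded LN-BEC (log2 change 0.52, edgeR adjusted p = 0.0011). Met, which encodes the hepatocyte growth factor receptor, had means of 3323, 3689 and 1948, and LN-LEC exceeded D-LEC (0.79, edgeR adjusted p = 0.0116). The direction of that Met difference was opposite to that of Cav1, and its libraries overlapped between LN-LEC and D-LEC. Capza2 and St7 had log2 changes of 0.24 and 0.14 for LN-LEC against LN-BEC, neither called. For LN-LEC against D-LEC, St7 was lower in LN-LEC, the direction of Cav1 (-0.36, edgeR adjusted p = 0.0309), and Capza2 was not called (0.43, edgeR adjusted p = 0.155).

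**Figure D2:**
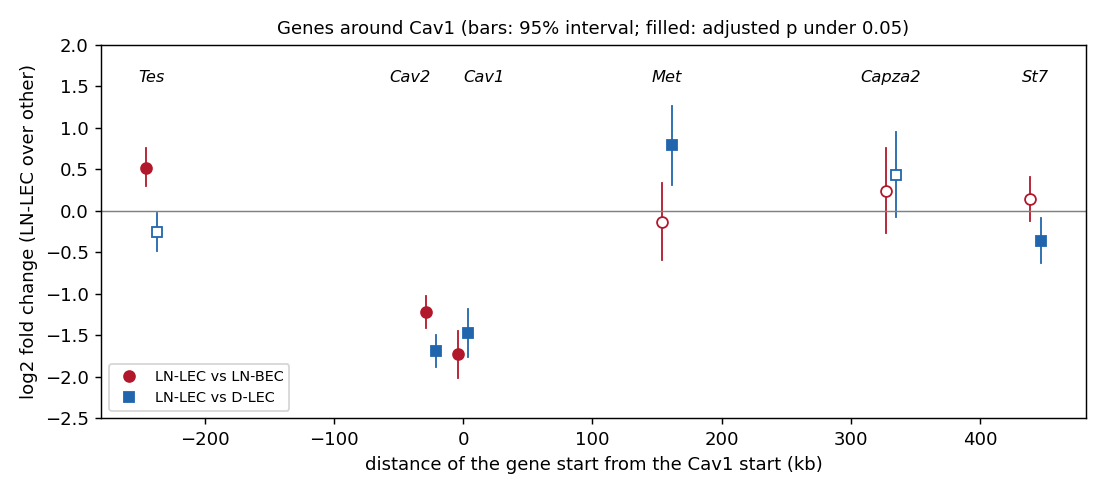
Log2 changes of Cav1 and of the genes within 500 kb of it (Tfec, at most at 4 counts, is not drawn), for LN-LEC against LN-BEC (circles) and LN-LEC against D-LEC (squares), by the distance in kb of each gene's start from that of Cav1. Bars are 95% intervals, and filled symbols passed edgeR's test. Cav2 and Cav1 lie at -25.0 and 0 kb with log2 changes of -1.22 and -1.73 for LN-LEC against LN-BEC, and Tes and Met lie on either side with 0.52 and -0.14.

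The bases just before the starts of 4 genes of the caveolar coat (Cav1, Cav2, Ptrf and Sdpr) are shown here. RefSeq windows of GRCm38.p6, a newer build than the mm9 of the counts, were matched for 7 of the 9 genes, and the 250 bases before the start are printed 5′ to 3′ on the gene's strand. Where a gene had several starts, the window at the outermost start was used. Plvap and Prkcdbp had no window, and those of Ehd2, Ehd4 and Pacsin2 are not printed. The windows are chr6:17306085-17306334 (plus strand) for Cav1, chr6:17280935-17281184 (plus) for Cav2, chr11:100970618-100970867 (minus) for Ptrf and chr1:51288876-51289125 (plus) for Sdpr. Capitals mark, on either strand, the GC box with the letters GGGCGG, the core promoter element TATAAA and the CCAAT box, which is spelled as its name. These motifs were picked after the levels had been seen.
Cav1: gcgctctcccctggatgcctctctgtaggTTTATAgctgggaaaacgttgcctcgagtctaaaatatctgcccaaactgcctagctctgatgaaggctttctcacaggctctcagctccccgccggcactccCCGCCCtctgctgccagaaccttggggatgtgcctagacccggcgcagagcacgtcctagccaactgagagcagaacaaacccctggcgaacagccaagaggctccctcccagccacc
Cav2: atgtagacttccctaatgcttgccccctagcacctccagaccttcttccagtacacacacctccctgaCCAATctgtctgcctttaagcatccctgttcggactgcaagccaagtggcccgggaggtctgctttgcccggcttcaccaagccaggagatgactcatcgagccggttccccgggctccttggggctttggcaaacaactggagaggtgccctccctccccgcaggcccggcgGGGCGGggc
Ptrf: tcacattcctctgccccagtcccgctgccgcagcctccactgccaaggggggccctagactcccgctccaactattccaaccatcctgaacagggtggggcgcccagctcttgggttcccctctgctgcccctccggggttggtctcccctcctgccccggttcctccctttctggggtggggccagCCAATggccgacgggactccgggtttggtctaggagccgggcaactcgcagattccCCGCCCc
Sdpr: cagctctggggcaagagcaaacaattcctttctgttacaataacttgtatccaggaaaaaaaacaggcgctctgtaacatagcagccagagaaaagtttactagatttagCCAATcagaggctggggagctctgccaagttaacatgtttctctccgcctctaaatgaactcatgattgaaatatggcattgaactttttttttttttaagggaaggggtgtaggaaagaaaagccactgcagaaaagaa
Of all 27025 RefSeq promoter windows of this length, 33% held a GC box, 13% the element TATAAA and 34.5% a CCAAT box. Cav1, Cav2 and Ptrf each held 1 GC box, as did Ehd2, Ehd4 and Pacsin2, and Sdpr held 0. Cav2, Ptrf and Sdpr each held 1 CCAAT box and Cav1 held 0, and Ehd2, Pacsin2 and Ehd4 held 1, 2 and 3. The TATAAA element in the Cav1 window stood near its distal end. The GC content was 59.6% for Cav1, 62.0% for Cav2, 67.6% for Ptrf and 40.4% for Sdpr, beside a median of 52.0% over all windows. These letters are a description of the sequence alone.

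The cavins did not move as a block. Ptrf, which encodes cavin-1, the coat protein needed for caveolae to form, lies on the minus strand at chr11:100818051-100831931 (mm9, as for all gene positions here). It had normalized counts of 7710, 7416, 7666 and 9075 in LN-LEC, 18616, 17236 and 24310 in LN-BEC, and 25055, 22013 and 21551 in D-LEC. Every LN-LEC library was below every other library, and LN-BEC overlapped D-LEC. LN-BEC exceeded LN-LEC 2.49-fold (log2 change -1.32, SE 0.12, edgeR adjusted p = 8.7e-07), and D-LEC exceeded LN-LEC 2.83-fold (-1.50, SE 0.12, edgeR adjusted p = 2.1e-07). The D-LEC to LN-BEC difference was 0.18 (95% interval -0.09 to 0.46, edgeR adjusted p = 0.258). Without LN-BEC replicate 3, the LN-BEC library with the highest Ptrf, it passed at 0.34 (edgeR adjusted p = 0.0289).

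Prkcdbp, the gene of cavin-3 (chr7:112629130-112630711, minus strand), followed Ptrf at a lower level. Its normalized counts were 1421, 1466, 1425 and 1841 in LN-LEC, 3166, 3674 and 3738 in LN-BEC, and 4727, 3942 and 3938 in D-LEC. No populations overlapped. LN-BEC exceeded LN-LEC 2.27-fold (log2 change -1.18, SE 0.11, edgeR adjusted p = 1.2e-06), and D-LEC exceeded LN-LEC 2.69-fold (-1.43, SE 0.11, edgeR adjusted p = 1.6e-07). The difference between D-LEC and LN-BEC missed the threshold (0.25, 95% interval -0.01 to 0.50, edgeR adjusted p = 0.102).

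Sdpr, the gene of cavin-2, a cavin that endothelial caveolae need in some tissues but not in others (chr1:51345970-51359804, plus strand), stood apart. Its normalized counts were 24910, 23680, 26965 and 26015 in LN-LEC, 22467, 16301 and 24532 in LN-BEC, and 70446, 75578 and 80651 in D-LEC. The lymph node populations overlapped, and every D-LEC library was far above them. D-LEC exceeded LN-LEC 2.93-fold (log2 change -1.55, SE 0.12, edgeR adjusted p = 2.2e-07), and D-LEC exceeded LN-BEC 3.57-fold (1.84, SE 0.14, edgeR adjusted p = 9.0e-08). Between the lymph node populations it differed by 0.28 (95% interval 0.01 to 0.55, edgeR adjusted p = 0.0943), and without LN-BEC replicate 3 by 0.40, which passed (edgeR adjusted p = 0.0259). On the per-length scale Sdpr was the 44th ranked gene of D-LEC.

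**Figure D3:**
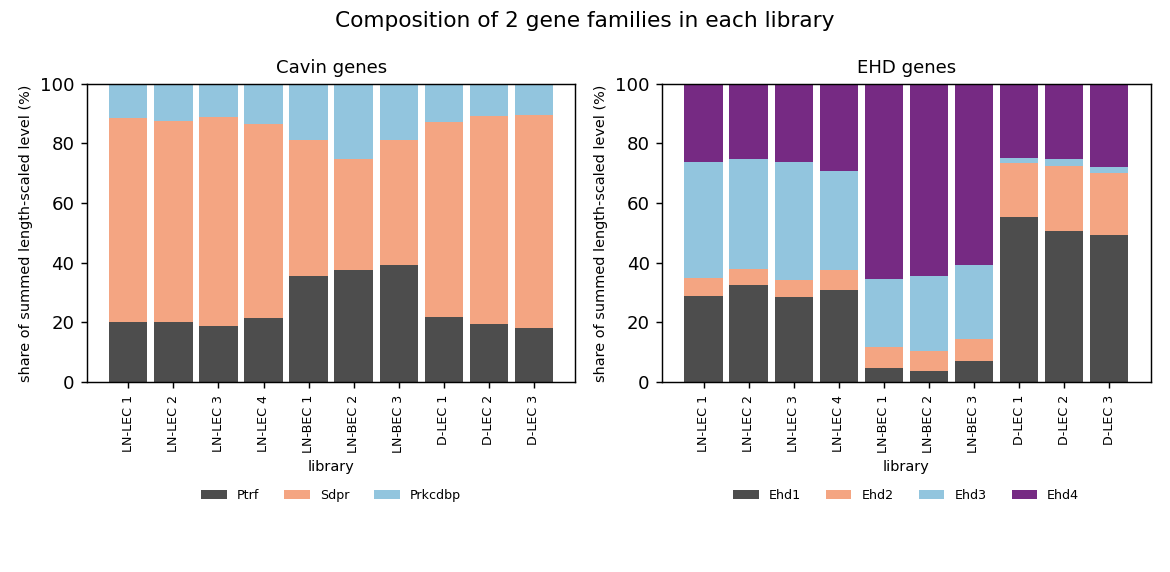
Share of the summed per-length level of the cavins Ptrf, Sdpr, Prkcdbp and Murc (left, Murc not drawn) and of Ehd1 to Ehd4 (right) in each library, in percent. Sdpr averaged 41.5% of the cavin sum for LN-BEC, and Ehd4 averaged 63.5% of the EHD sum for LN-BEC.

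As shares of the summed FPKM of these 3 cavin genes and Murc, Sdpr averaged 67.7% for LN-LEC, 41.5% for LN-BEC and 68.8% for D-LEC. The share of Ptrf was 20.1%, 37.5% and 19.8%, and that of Prkcdbp 12.2%, 21.0% and 11.4%. For each of these genes the shares in the LN-BEC libraries did not overlap those of either LEC population. The Sdpr to Ptrf ratio, taken up after the levels had been seen and so given without a test, was 3.37 ± 0.28 (SD, n = 4) in LN-LEC, 1.11 ± 0.143 (n = 3) in LN-BEC and 3.51 ± 0.499 (n = 3) in D-LEC. Murc, the muscle cavin, was close to 0 everywhere, with means of 0.600, 0 and 3.00 normalized counts in the same order of populations, and Cav3, the muscle caveolin, had means of 0, 1.34 and 0.754.

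Among the genes that work at the caveolar neck, Ehd2, which encodes an ATPase that stabilizes caveolae (chr7:16534336-16552884, minus strand), had normalized counts of 608, 510, 548 and 682 in LN-LEC, 1275, 1312 and 1197 in LN-BEC, and 1516, 1595 and 1632 in D-LEC. The populations did not overlap. LN-BEC exceeded LN-LEC 2.12-fold (log2 change -1.08, SE 0.10, edgeR adjusted p = 1.1e-06), and D-LEC exceeded LN-LEC 2.65-fold (-1.41, SE 0.10, edgeR adjusted p = 7.4e-08). D-LEC exceeded LN-BEC 1.25-fold (0.32, SE 0.11, edgeR adjusted p = 0.0248), a difference that did not pass without LN-BEC replicate 1 or 3 or without D-LEC replicate 2 or 3, where edgeR's adjusted p ran from 0.0539 to 0.0792.

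Ehd4, a relative of Ehd2 that acts in endosomal membrane traffic and has also been placed at caveolae (chr2:119915223-119980311, minus strand), went the other way in D-LEC. Its normalized counts were 2931, 2524, 2771 and 3264 in LN-LEC, 12748, 14150 and 10990 in LN-BEC, and 2280.5, 2065 and 2447 in D-LEC. The LN-BEC libraries stood far above the rest, and LN-LEC lay just above D-LEC without overlap. LN-BEC exceeded LN-LEC 4.35-fold (log2 change -2.12, SE 0.11, edgeR adjusted p = 3.6e-09), and LN-BEC exceeded D-LEC 5.60-fold (-2.49, SE 0.12, edgeR adjusted p = 1.4e-09). The 1.29-fold excess of LN-LEC over D-LEC passed the test (0.37, SE 0.11, edgeR adjusted p = 0.0152), but not without D-LEC replicate 2 (0.30, edgeR adjusted p = 0.0725).

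The other EHD genes, which were not among the 9, filled the EHD sum differently in each population. Ehd1, which acts in endocytic recycling, was 3034 ± 157 (SD, n = 4) in LN-LEC, 931 ± 227 (n = 3) in LN-BEC and 4248 ± 449 (n = 3) in D-LEC on the normalized count scale. Ehd3 was 4301 ± 369, 5240 ± 695 and 197 ± 29.6. For Ehd3, LN-LEC exceeded D-LEC by 4.46 on the log2 scale (SE 0.14, edgeR adjusted p = 3.7e-11). Of the summed FPKM of Ehd1 to Ehd4, Ehd4 took 63.5% in LN-BEC, Ehd1 51.8% in D-LEC, and Ehd3 37.1% in LN-LEC.

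Pacsin2, which encodes an F-BAR protein that shapes caveolae (chr15:83206037-83295036, minus strand), was highest in D-LEC. Its normalized counts were 2354, 2329.5, 2744 and 2958 in LN-LEC, 2014, 2094 and 2335 in LN-BEC, and 9701, 6892 and 8367 in D-LEC. LN-LEC and LN-BEC overlapped, and all D-LEC libraries were higher. D-LEC exceeded LN-LEC 3.15-fold (log2 change -1.66, SE 0.12, edgeR adjusted p = 7.2e-08) and D-LEC exceeded LN-BEC 3.86-fold (1.95, SE 0.13, edgeR adjusted p = 3.2e-08). LN-LEC and LN-BEC differed by 0.29 (95% interval 0.03 to 0.55, edgeR adjusted p = 0.0744), and by 0.29 without D-LEC replicate 1 or 2, which passed (edgeR adjusted p = 0.0498 and 0.0434). Pacsin3, the muscle-enriched relative, was 51.7 ± 4.02, 22.3 ± 7.27 and 359 ± 72.6 in that same order of populations.

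Plvap had the largest fold change of the 9 genes between D-LEC and LN-BEC, and it encodes the diaphragm protein of the set. Its normalized counts (chr8:74021652-74035668, minus strand) were 17213, 16054, 17675 and 17867 in LN-LEC, 33470, 43134 and 38863 in LN-BEC, and 4377, 3401 and 3718 in D-LEC. The 3 populations did not overlap. LN-BEC exceeded LN-LEC 2.21-fold (log2 change -1.15, SE 0.11, edgeR adjusted p = 1.1e-06), and LN-LEC exceeded D-LEC 4.56-fold (2.19, SE 0.12, edgeR adjusted p = 3.2e-09). LN-BEC exceeded D-LEC 10.1-fold (-3.34, SE 0.13, edgeR adjusted p = 1.1e-10). On the per-length scale Plvap stood at rank 72 for LN-BEC, 169 for LN-LEC and 1038 for D-LEC, with mean FPKM of 618, 279 and 61.7.

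**Figure D4:**
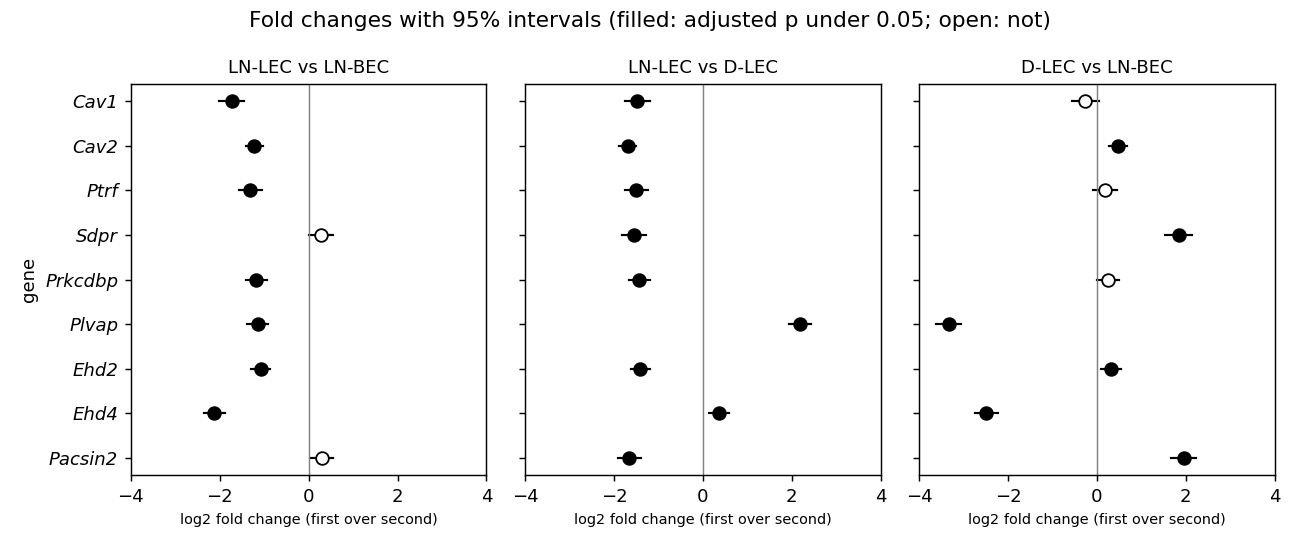
Log2 changes of the 9 genes in the 3 comparisons (panels), with 95% intervals and filled points for those that passed edgeR's test. Points left of 0 are lower in the first population named. Plvap was lower in D-LEC than in LN-BEC by 3.34 on the log2 scale, and Sdpr was higher by 1.84.

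The ratios of FPKM of Cav2, Ptrf and Plvap to Cav1 and of Ehd2 to Ehd4 were compared between populations by exact 2-sided permutation tests, 12 tests in all. The smallest p possible was 0.0286 between LN-LEC and the other populations and 0.1 between D-LEC and LN-BEC, and none was under 0.05 after Benjamini-Hochberg adjustment over the 12. Plvap to Cav1 was 1.53 ± 0.201 (SD, n = 4) in LN-LEC, 1.01 ± 0.181 (n = 3) in LN-BEC and 0.121 ± 0.0290 (n = 3) in D-LEC, without overlap of any populations (LN-LEC and D-LEC exact permutation p = 0.0286, adjusted 0.0857). Cav2 to Cav1 was 0.243 ± 0.0367, 0.167 ± 0.0118 and 0.279 ± 0.0240, with LN-LEC and D-LEC overlapping (exact permutation p = 0.0571 for LN-LEC against LN-BEC, adjusted 0.114). Ptrf to Cav1 was 0.441 ± 0.0324, 0.325 ± 0.0394 and 0.452 ± 0.0921, with the same overlap (LN-LEC against LN-BEC exact permutation p = 0.0286, adjusted 0.0857). Ehd2 to Ehd4 was 0.226 ± 0.00562, 0.111 ± 0.00901 and 0.777 ± 0.0681, again without overlap (LN-LEC against each other population exact permutation p = 0.0286, adjusted 0.0857).

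**Figure D5:**
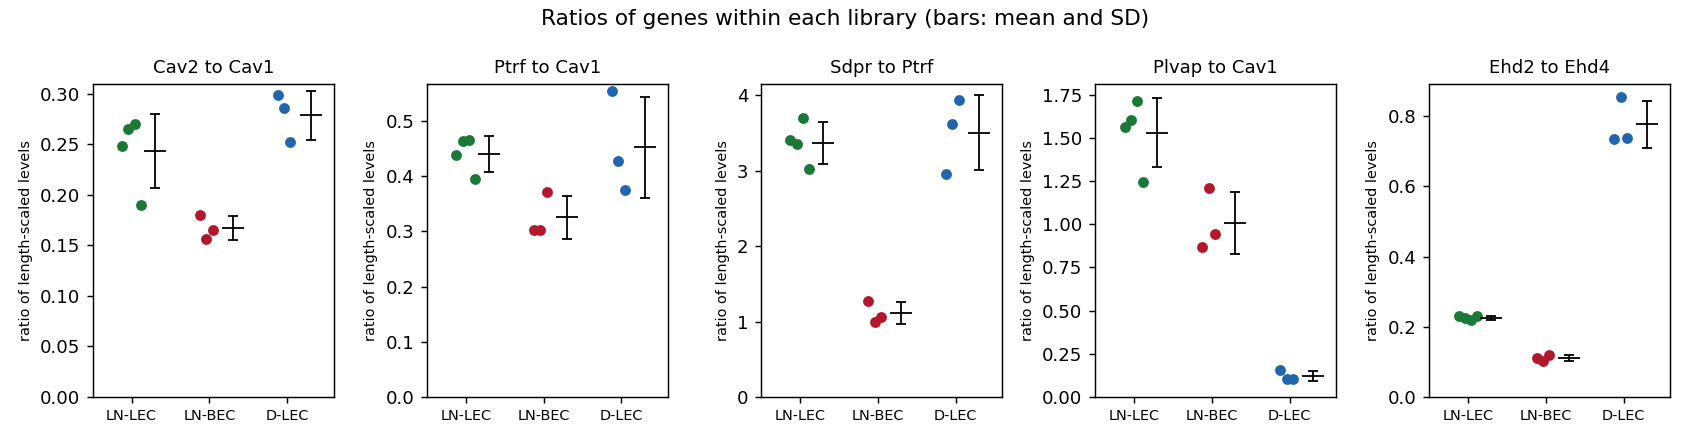
Ratios of per-length levels (Cav2 to Cav1, Ptrf to Cav1, Sdpr to Ptrf, Plvap to Cav1 and Ehd2 to Ehd4) in each library on axes from 0, with bars for the mean and SD of each population. Plvap to Cav1 was 1.53 on average in LN-LEC and 0.121 in D-LEC.

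Markers of other cells moved with some of these comparisons, and their part in the results was not tested. The 5 endothelial markers (Pecam1, Cdh5, Tek, Tie1 and Emcn) summed to 66685 to 71750 normalized counts in LN-LEC, 174740 to 190020 in LN-BEC and 84520 to 92530 in D-LEC. LN-BEC exceeded LN-LEC for all 5. D-LEC exceeded LN-LEC for 3 (Tek, Tie1 and Emcn, log2 changes -0.66, -0.97 and -3.27), and LN-LEC exceeded D-LEC for 0. Tek, Tie1 and Emcn were thus called lower in LN-LEC than in each other population, the pattern of Cav1, Cav2, Ptrf, Prkcdbp and Ehd2. For Tek the LN-LEC and D-LEC libraries overlapped (edgeR adjusted p = 0.0475). Pecam1 and Cdh5 did not differ past the threshold between LN-LEC and D-LEC (log2 changes -0.02 and -0.14, edgeR adjusted p = 0.894 and 0.237). The pericyte and smooth muscle markers, cells that also form caveolae, summed to 3453 to 5534 in LN-LEC, 6440 to 8321 in LN-BEC and 339 to 516 in D-LEC, and LN-BEC exceeded LN-LEC for 6 of the 9 and D-LEC for all 9, while LN-LEC exceeded D-LEC for 8 of the 9. Rgs5 made up most of these sums in the lymph node populations, with means of 3856 and 4393 that did not differ past the threshold (edgeR adjusted p = 0.61), and the smooth muscle markers Acta2 and Myh11 had means of 213 and 124 in LN-LEC and 872 and 479 in LN-BEC. Skeletal muscle markers summed to 32.7 to 48.0, 95.1 to 111 and 1078 to 1614, and D-LEC exceeded each other population for all 8. Of the muscle relatives of the 9 genes, Pacsin3 was also highest in D-LEC (log2 change -2.77 for LN-LEC against D-LEC, edgeR adjusted p = 2.3e-07). Murc, at a mean of 3.00 normalized counts in D-LEC, was called against LN-BEC (edgeR adjusted p = 0.0284), and Cav3 was not called in any comparison. In the same order, mesothelial markers summed to 26.0 to 77.3, 22.5 to 131 and 587 to 1817, and D-LEC exceeded each other population for all 5. Adipocyte markers summed to 21.6 to 91.8, 284 to 797 and 4.01 to 11.4. Of these 5, LN-BEC exceeded LN-LEC for 4 and D-LEC for all 5, and LN-LEC exceeded D-LEC for 2. Leukocyte markers summed to 200 to 245, 632 to 1013 and 94.2 to 198. Of these 7, LN-BEC exceeded LN-LEC for 5 and D-LEC for 5, and LN-LEC exceeded D-LEC for 2. The fibroblast markers summed to 4202 to 8107, 2228 to 8713 and 2702 to 8007, ranges that overlapped, and none was called in any comparison. Among the defining markers, Plin1 and Lep were at 0 in D-LEC and Myh4 was at 0 in LN-BEC.

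Genes of caveolar scission and of the coupling to actin and kinases split in each comparison. Of 12, counting in this and the next lists the genes that passed edgeR's test, LN-LEC was the higher for 2 and LN-BEC for 4 in the first comparison, LN-LEC for 2 and D-LEC for 7 in the second, and D-LEC for 4 and LN-BEC for 3 in the third (medians -0.15, -0.35 and 0.11). Of all tested genes, 38.2%, 45.8% and 48.1% were called in either direction in these 3 comparisons, the background for this and the next lists. Dnm2, which encodes the ubiquitous scission GTPase dynamin 2, had means of 1110, 1351 and 1405 normalized counts in the order LN-LEC, LN-BEC, then D-LEC. Dnm3 was highest in LN-BEC, with means of 129, 887 and 236. Itsn1, a dynamin-binding scaffold, was highest in D-LEC at 872, 470 and 2901, and Src, a kinase that phosphorylates caveolin-1, was highest in LN-LEC at 250, 33.5 and 44.5. The kinase genes Yes1 and Abl1 of the same list were instead highest in D-LEC. Yes1 had means of 3643, 3819 and 5803, and Abl1 of 1427, 1585 and 2623. Flna, which encodes the actin-binding filamin A that links caveolae to stress fibres, was lower in LN-LEC (mean 4159) than in LN-BEC (6857) and D-LEC (6005).

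Of 12 genes for cargo and signalling proteins linked to caveolae, LN-LEC was the higher for 2 and LN-BEC for 5, LN-LEC for 5 and D-LEC for 4, and D-LEC for 3 and LN-BEC for 6 (medians -0.26, 0.08 and -0.39). The shares of all tested genes called in either direction were 38.2%, 45.8% and 48.1%. Scarb1, the high-density lipoprotein receptor, had means of 931 in LN-LEC and 16377 in LN-BEC, a log2 change of -4.12 (edgeR adjusted p = 1.4e-11). Insr, the insulin receptor, had means of 1713, 8087 and 1580 in the same order of populations. Cd36, the fatty acid transporter, had 29792, 42889 and 1200, and Nos3, endothelial nitric oxide synthase, which caveolin-1 holds back, had 816, 683 and 574. Neither Cd36 nor Nos3 differed past the threshold between LN-LEC and LN-BEC (edgeR adjusted p = 0.115 and 0.0799). Nos3 did not differ past it between D-LEC and LN-BEC either (edgeR adjusted p = 0.112). Trpc1, a calcium channel, was highest in D-LEC at 204 against 27.7 and 14.7.

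VEGF signalling maintains fenestrae, and 7 of its genes were read beside Plvap. LN-LEC was the higher for 2 and LN-BEC for 3, LN-LEC for 4 and D-LEC for 2, and D-LEC for 3 and LN-BEC for 4 (medians -0.01, 0.51 and -0.52). Over all tested genes, 38.2%, 45.8% and 48.1% were called in either direction. Kdr, the main signalling receptor, had means of 17018, 17296 and 12101 normalized counts, and LN-LEC exceeded D-LEC by 0.51 on the log2 scale (edgeR adjusted p = 0.00236). Vegfa had means of 1962, 546 and 260 and was highest in LN-LEC. Flt1 and Nrp1 had means of 14643 and 45628 in LN-BEC, 197 and 674 in LN-LEC, and 61.0 and 106 in D-LEC. Pgf was highest in D-LEC, at 1111 against 31.4 and 60.8.

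The genes whose levels tracked a member most closely were found by Pearson correlation of log2 CPM over the 10 libraries among 10210 genes with a mean of at least 100 normalized counts. The 10 libraries form 3 populations, so r mostly reflects the 3 means, and these genes share depth and library with the member. Closest to Plvap were Enpp2 (0.997), which encodes autotaxin, and Hap1, Ublcp1, Ubd and Bace2 (each from 0.996). Closest to Cav1 were Fam65b (0.990), Ch25h, Tspan13, Podxl and Fam129a. Closest to Ptrf were Cd151 (0.996), Gpihbp1 (0.995), Fam176a, Tmem204 and Ier2, and closest to Ehd4 were Mosc2 (0.998), Plcb1, Serpinb1a, Tmem44 and Cxcl12. Gpihbp1 encodes the capillary anchor of lipoprotein lipase, and Cxcl12 a chemokine.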

How the data were processed

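RNA was measured in 10 sorted mouse endothelial libraries, amplified from total RNA with the Ovation RNA-Seq System V2 kit and sequenced as paired ends. The authors trimmed the reads, used STAR to align them to mm9, and counted them per gene symbol with featureCounts version 1.4.4, and the deposited values are these raw counts for 23284 symbols, without normalization. The deposited table also gives each gene's exon length, from which FPKM was computed. Strand was not used in counting, and no exon base of the 9 genes is shared with another gene of the table. Every count column belonged to a labelled library (0 others), and 0 rows lacked a gene name.

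Rows of predicted or clone symbols (3831) were left out, and a gene was kept where the libraries of some population averaged 1 normalized count or more. The test was the quasi-likelihood F test of edgeR 4.0.16 (R 4.3.3) with TMM scaling and robust estimation, fitted to all 10 libraries with a mean for each population, and p-values were adjusted by Benjamini-Hochberg within each comparison. The SE of a log2 change is its size over the root of its F statistic. Normalized counts are counts divided by DESeq2 1.42.0 size factors. Correlations used log2 CPM with a prior count of 2. Ratios of FPKM were compared by exact 2-sided permutation tests. The scripts were checked on simulated counts.

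The study tested with DESeq2, tried here as an alternative, beside other scalings, filters, a fit without robust estimation, a fit of the compared populations alone, and each library left out in turn. Leaving out LN-BEC replicate 3 and LN-LEC replicate 4 together was chosen after seeing the data. The 9 genes and all gene lists were chosen with earlier results of these data known. The genes named were the 9, genes of the lists that are described, the 4 clathrin genes of largest change among those called, the genes within 500 kb of Cav1, and the 5 genes most correlated with Plvap, Cav1, Ptrf and Ehd4 each.

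Replicate numbers follow accession order and only name libraries. Counts of the 12 pairs of libraries within a population differed beyond counting noise (chi-square per gene 10.8 to 406), and their log2 levels correlated at 0.977 to 0.990. Each library is a pool of mice, so p-values measure the spread between pools. Promoter sequences were read from RefSeq windows of GRCm38.p6, and coordinates of genes are those of the count table (mm9).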

Additional observations from a re-analysis of the deposited data

Results flagged for a closer look

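Among the 9 genes, each checked for a library standing apart within the 4 LN-LEC libraries, Prkcdbp did so in LN-LEC replicate 4, at 1841.3 normalized counts with the nearest other library at 1466.3. The gap was 0.892 of the whole range, above Dixon's 95% critical value for 4 samples. Chance puts about 1 in 20 independent groups past that value, and 1 of 9 passed here. The 9 groups were the same 4 libraries, so they are not independent and that rate does not apply to them directly. LN-LEC replicate 4 was also the highest LN-LEC library for Cav1, Ptrf, Plvap, Ehd2, Ehd4 and Pacsin2, but not for Cav2 or Sdpr.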

How the results depend on the processing

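The 27 log2 changes of the 9 genes (3 comparisons) were recomputed in 486 combinations of gene, comparison and alternative, of which 469 kept their direction and their side of the threshold, 5 lost the call, 12 gained it and 0 changed sign. With each library left out in turn, 261 of 270 were kept. Among the differences that gained the call, library totals as the only scaling brought Sdpr and Pacsin2 to 0.50 for LN-LEC against LN-BEC (edgeR adjusted p = 0.00322 and 0.00399) and Ptrf and Prkcdbp to 0.39 and 0.44 for D-LEC against LN-BEC (edgeR adjusted p = 0.00954 and 0.00584). The fit of the compared populations alone called Pacsin2 for LN-LEC against LN-BEC (0.29, edgeR adjusted p = 0.0416). Without both LN-BEC replicate 3 and LN-LEC replicate 4, chosen after seeing the data, Sdpr passed at 0.40 for LN-LEC against LN-BEC, and Ptrf and Prkcdbp passed at 0.37 and 0.31 for D-LEC against LN-BEC. The number of the 9 genes called stayed at 7 to 9, 8 to 9 and 5 to 8 in the 3 comparisons over all alternatives. No paired analysis was possible because the labels give no replicate numbers, sorting day or pairing of populations. Populations of 3 and 4 libraries limit the exact tests of ratios.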

Other observations

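Clathrin-coated pits, the other main route of endocytosis, were read from a list of 18 genes. LN-LEC was the higher for 9 and LN-BEC for 2, LN-LEC for 5 and D-LEC for 3, and D-LEC for 6 and LN-BEC for 4 (median log2 changes 0.39, 0.21 and 0.01). Fcho1, which starts clathrin pits, had means of 974, 152 and 40.4 normalized counts (LN-LEC, LN-BEC, then D-LEC). Amph had means of 154, 39.7 and 1.26, Bin1 of 2837, 779 and 1129, and the cargo adaptor Dab2 of 23877 ± 9516 (SD, n = 4), 5982 ± 700 (n = 3) and 12790 ± 1741 (n = 3). Among all tested genes 19.8% were called with LN-LEC the higher and 18.4% with LN-BEC the higher in the first of these comparisons. In the second, 24.1% were called with LN-LEC the higher and 21.7% with D-LEC the higher. In the third, 22.5% were called with D-LEC the higher and 25.6% with LN-BEC the higher. The flotillins Flot1 and Flot2, which mark membrane domains apart from caveolae, were both lower in LN-BEC, with means of 2634, 1330 and 2955 for Flot1 and 1411, 834 and 1405 for Flot2.

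Of 8 genes of blood vessel barrier function, LN-BEC was the higher for 5 and LN-LEC for 1, LN-LEC for 3 and D-LEC for 2, and LN-BEC for 5 and D-LEC for 2 (median log2 changes -1.76, 0.36 and -2.52). The background over all tested genes was 38.2%, 45.8% and 48.1% called in either direction. Mfsd2a, a lipid transporter that holds back caveolar transport in brain endothelium, was low throughout, with means of 3.89, 19.3 and 0 normalized counts. Abcb1a, an efflux pump, had means of 54.5, 6154 and 68.4, and Slc2a1, a glucose carrier, 3866, 9925 and 2691. Cldn5, a tight junction protein, was lowest in LN-BEC, with means of 7523, 1897 and 6759.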
